A study of Mus musculus with 24 samples.

Results

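The connexins are the subunits of gap junctions, and 7 mouse connexin genes were followed here in the suprachiasmatic nucleus (SCN), the paired nucleus of the hypothalamus that serves as the body's central clock: Gja1, Gjb2, Gjb6, Gjc3, Gja4, Gjc1 and Gjd2. The genes were taken by symbol from a deposited table of log2 expression values, which holds 15 probe sets for them among 45101, and 7 of the 18193 genes with a probe set of a single symbol. A probe set is a group of array oligonucleotides that together give 1 value for a transcript, and where a gene had several, its brightest one on average over the 24 arrays was used as the leading one. All 7 connexins passed the filter of a log2 value above 4 on at least 4 arrays, as did 13494 genes in all.

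Adult C57BL/6 mice, 8 weeks old on arrival, had been kept in constant dim red light for at least 7 days. One set received a 30 min pulse of light of a kind that advances the clock, the other a sham treatment, and brains were taken 3.5 h afterwards. Laser microdissection separated ventral, central and dorsal SCN on brain sections, and the RNA of each was amplified and hybridised to Affymetrix mouse arrays. This gave 6 groups of 4 arrays: pulsed ventral, pulsed central and pulsed dorsal SCN, and sham ventral, sham central and sham dorsal SCN. Mice of all 6 groups were of 1 strain, and no group carried a transgene or a deletion per the labels. Which arrays share an animal, and whether animals were pooled, is not in the labels, so that p-values measure only the spread between these arrays.

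Connexins assemble into hemichannels in the membrane, and hemichannels of neighbouring cells dock to form a gap junction through which ions and small metabolites pass. Astrocytes are coupled mainly by Gja1 (Cx43) and Gjb6 (Cx30), with Gjb2 (Cx26) also found in astrocytes and in leptomeningeal cells. Neurons of the SCN are coupled electrically through Gjd2 (Cx36 in the usual naming), which is also the main neuronal connexin in other parts of the brain.

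Values depended on the batch in which RNA was amplified and labelled. Arrays 1 and 2 of each group belong to batch A and arrays 3 and 4 to batch B, and the array medians were 3.52 to 3.62 in batch A and 4.81 to 5.07 in batch B. Levels of the 2 batches were therefore not compared, and the batch was a term in every test of the main fit. The filter and the choice of the leading probe set, however, used the values of both batches on 1 scale. On pulsed dorsal array 4 the Gapdh control probes at the 3′ end were 5.41 log2 units above those at the 5′ end. This Gapdh difference was 0.887 to 1.07 on the other 11 arrays of its batch. It was also raised throughout batch A, at 2.02 to 3.28 on the 12 arrays. The median correlation of pulsed dorsal array 4 with the arrays of its batch was 0.913, against 0.977 to 0.987 on the other 11. In batch A these correlations were 0.955 to 0.982. Of 6 light-responsive genes (Nptx1, Egr3, Fosb, Per2, Vgf and Crem), 6 passed the test as higher in the ventral, 5 in the central and 2 in the dorsal SCN. All 6 differences were positive in each region, with a median of 1.29 in the dorsal SCN. These genes were chosen with earlier results of these data known, so they are not an independent check of the labels. Of the region markers, Vip was 3.43 ± 0.298 log2 units higher in ventral than in dorsal SCN and Avp 1.43 lower (difference -1.43 ± 0.249). Other region markers were mixed. Of 5 markers of the SCN core (Vip, Grp, Calb1, Nts and Cck), 3 passed as higher and 1 as lower in that comparison. In central against dorsal SCN 2 of the 5 passed as higher and 3 as lower. Of 3 tested shell markers (Avp, Prok2 and Avpr1a), 0 were higher and 1 lower in ventral than in dorsal SCN.

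After the light pulse Gjb2 rose in the ventral and central SCN, by 3.39-fold and 3.35-fold, and no other connexin passed the test in any region. The remaining astrocytic connexins, Gjb6 and Gja1, had negative light differences in all 3 regions, none of which passed. Between regions, Gjd2 was higher in the dorsal SCN than in both others, and Gja1 and Gjb6 were higher in the ventral than in the central SCN. Of the 7 connexins, 1 rose and 0 fell in the ventral SCN, where 0.719% of all tested genes were called in either direction and 0.585% were higher. In the central SCN 1 rose and 0 fell, where 0.385% were called and 0.296% were higher. In the dorsal SCN 0 of 7 passed, where 0.178% of genes were called. An unadjusted p under 0.05 was found for 2 of the 7 connexins in the ventral, 3 in the central and 2 in the dorsal SCN, against 6.56%, 8.06% and 10.1% of all tested genes. A gene was called when its adjusted p was under 0.05 in limma's moderated test, two-sided, with Benjamini-Hochberg adjustment over the 13494 genes. Adjusted p come from the main fit of that test, with 4 arrays per group, unless another fit is stated. The other fits used limma's moderated test too. They are the averaged light effect on 8 composites, the fit of all probe sets and the alternatives. Errors after ± are standard errors (SE) of a log2 difference unless SD is stated.

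Gjb2 encodes a connexin of the beta group, best known from the supporting cells of the inner ear and, in the brain, from leptomeninges and astrocytes. Its probe set, 1423271_at, was above the array median on 24 of 24 arrays. In the ventral SCN it gave log2 values of 7.84 and 8.46 on pulsed arrays 1 and 2 and of 10.40 and 10.05 on pulsed arrays 3 and 4, against 6.25 and 6.36 on sham arrays 1 and 2 and 8.67 and 8.43 on sham arrays 3 and 4. Every pulsed array lay above both sham arrays of its batch. The difference was 1.76 ± 0.286 (95% confidence interval 1.17 to 2.35, adjusted p = 0.00238), which ranked 20th among the genes that were higher.

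In the central SCN the log2 values of Gjb2 were 7.35, 6.64, 9.81 and 9.55 on pulsed arrays 1 to 4, against 5.53, 6.09, 7.27 and 7.50 on sham arrays 1 to 4. Here too the groups did not overlap within either batch, and the difference was larger in batch B (2.30) than in batch A (1.19). The fitted difference was 1.74 ± 0.286 (adjusted p = 0.00462). Values that did not overlap within either batch and were higher after the pulse were seen for 5.96% of tested genes in the ventral and 2.99% in the central SCN.

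In the dorsal SCN Gjb2 gave log2 values of 7.34, 7.20, 9.59 and 8.06 on pulsed arrays 1 to 4, against 5.63, 6.05, 7.96 and 8.41 on sham arrays 1 to 4. Pulsed array 4, the array with the high Gapdh 3′ to 5′ difference, lay between the sham values of its batch, and the other 3 pulsed arrays lay above their sham arrays. The difference of 1.03 ± 0.286 (2.04-fold, 95% confidence interval 0.44 to 1.62) did not pass the test (adjusted p = 0.209). Without pulsed dorsal array 4 it was 1.39 ± 0.233 and passed (adjusted p = 0.00741).

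**Figure D1:**
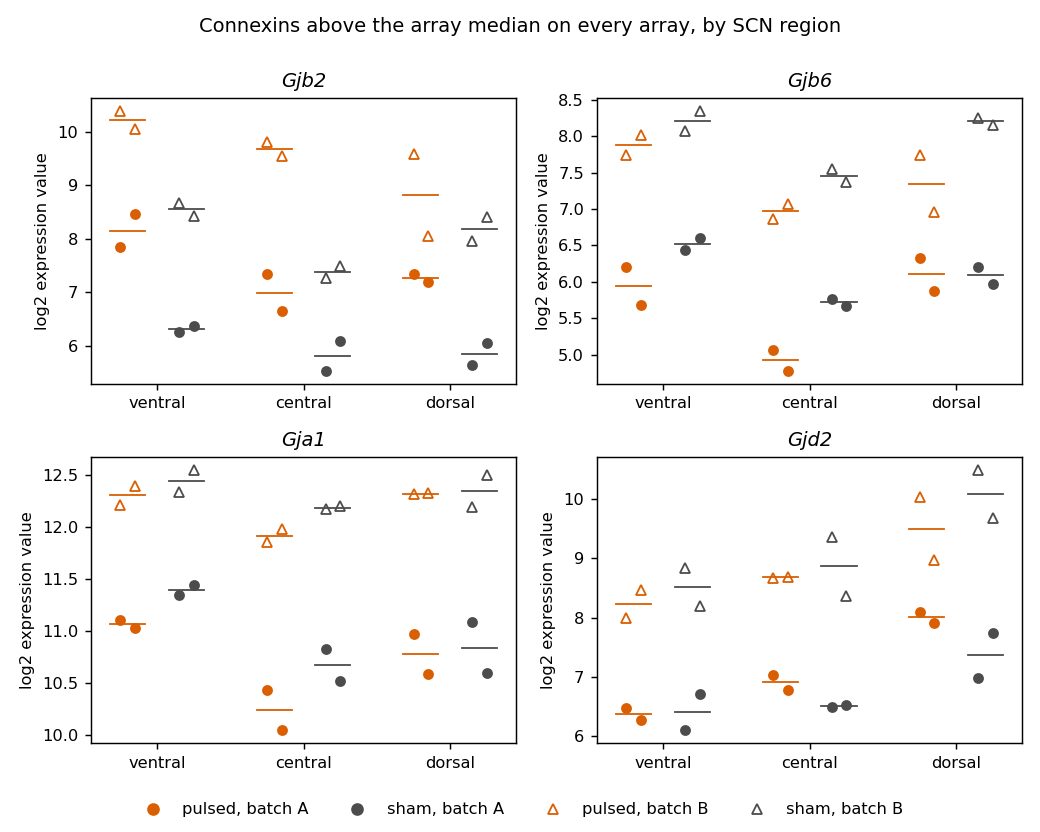
Deposited log2 values of Gjb2, Gjb6, Gja1 and Gjd2 (one panel each) on all 24 arrays, by region, with pulsed arrays left of sham arrays and the 2 batches drawn with separate symbols; short lines are the means of the 2 arrays of a batch. For Gjb2 in ventral and central SCN every pulsed array lies above the sham arrays of its batch, and in dorsal SCN pulsed array 4, at 8.06, lies between sham values of 7.96 and 8.41.

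Over the 3 regions, with the values of each treatment and replicate number averaged to 8 composites, Gjb2 was 1.51 ± 0.171 log2 units higher after the pulse (2.85-fold, adjusted p = 0.00456). In that comparison 1 of the 7 connexins rose and 0 fell, where 0.408% of genes were called and 0.356% were higher. Whether the response of Gjb2 differed between regions was tested directly. The light difference in the ventral SCN exceeded that in the dorsal SCN by 0.73 (95% confidence interval -0.11 to 1.57, adjusted p = 0.937) and that in the central SCN by 0.02 (-0.82 to 0.86, adjusted p = 1.00). The light difference in the central SCN exceeded that in the dorsal SCN by 0.71 (-0.13 to 1.55, adjusted p = 0.984). None of the 3 passed. Without pulsed dorsal array 4 the ventral minus dorsal value was 0.37 ± 0.317 (adjusted p = 1.00) and the central minus dorsal value 0.35 ± 0.317 (adjusted p = 0.999). Within batches the central minus dorsal value changed sign (-0.24 in batch A and 1.66 in batch B), as did the ventral minus central value (0.66 in batch A and -0.62 in batch B). For all 7 connexins and all 3 pairs of regions 0 differences of this kind passed, nor did any have an unadjusted p under 0.05, and among all tested genes 0%, 0.00741% and 0% passed for ventral against central, ventral against dorsal and central against dorsal SCN.

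In RNA from dissected tissue, more or fewer cells of a type and more or less RNA per cell cannot be told apart. The astrocyte list, 17 markers of which 16 were tested, had median light differences of -0.08, -0.15 and -0.12 in ventral, central and dorsal SCN, against -0.03, -0.08 and -0.03 over all genes. Of the 16, only Gfap, an intermediate filament of astrocytes, was called, with a rise of 1.28 ± 0.263 (adjusted p = 0.0180) in the ventral and 1.33 ± 0.263 (adjusted p = 0.0319) in the dorsal SCN, and a difference of 0.97 ± 0.263 (adjusted p = 0.155) in the central SCN. The mean of the 16 markers, centred on the batch mean, lay between 0.302 and 0.363 on pulsed ventral arrays and between 0.236 and 0.438 on sham ventral arrays, so that these groups overlapped. On central arrays it lay between -0.710 and -0.232 in pulsed and between -0.325 and -0.181 in sham SCN.

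Of 10 markers of ependymal cells and tanycytes, the cells that line the third ventricle, 4 were tested and 6 lay under the filter. Vim, an intermediate filament also made by astrocytes, rose by 1.60 ± 0.301 in the ventral SCN (adjusted p = 0.00849), and Dio2, a deiodinase of tanycytes and astrocytes, rose by 1.27 ± 0.257 (adjusted p = 0.0155). In central and dorsal SCN the Vim differences were 1.32 ± 0.301 (adjusted p = 0.0566) and 1.25 ± 0.301 (adjusted p = 0.113). Of the 4 tested markers, 3 had positive and 1 a negative difference in the ventral SCN, against 2 and 2 in the central and 4 and 0 in the dorsal SCN. The mean of the 4 markers on ventral arrays was 0.0998 to 0.682 after the pulse and -0.613 to -0.155 after sham treatment. It was -0.188 to -0.0986 against -0.631 to -0.325 on central arrays. On dorsal arrays it was 0.252 to 1.23 against -0.132 to 0.151. Of 10 markers of leptomeningeal fibroblasts, another cell type that makes Gjb2, 8 were tested and 0 were called in any of the 3 regions. Their 2 smallest unadjusted p in the ventral SCN belonged to Aldh1a2 (0.59 ± 0.310, adjusted p = 0.843) and Col3a1 (0.32 ± 0.192, adjusted p = 0.924). The part of ependymal cells, tanycytes or leptomeningeal cells in the Gjb2 values was not tested.

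Gjb2 and Gjb6 are neighbouring genes. In the RefSeq annotation of GRCm38.p6, the protein-coding neighbours of Gjb2 on chromosome 14 are Gja3 and Gjb6, and Gja3 lay under the filter on all arrays, at 3.10 to 3.74. The 250 bases upstream of the annotated start of Gjb2, Gjb6 and Gja1, the 3 connexins of astrocytes, are printed to set the gene that rose beside its neighbour and the second astrocytic connexin, which did not pass. All 3 run 5′ to 3′ on the strand of the gene, and capitals mark matches on either strand to 8 short motifs: the cAMP response element TGACGTCA and its half-site TGACG, the AP-1 site TGANTCA, the E-box CACGTG, the GC box GGGCGG, the EGR site GCGTGGGCG, the CCAAT box CCAAT and the TATA box TATAAA.
Gjb2, chr14:57104703-57104952, minus strand: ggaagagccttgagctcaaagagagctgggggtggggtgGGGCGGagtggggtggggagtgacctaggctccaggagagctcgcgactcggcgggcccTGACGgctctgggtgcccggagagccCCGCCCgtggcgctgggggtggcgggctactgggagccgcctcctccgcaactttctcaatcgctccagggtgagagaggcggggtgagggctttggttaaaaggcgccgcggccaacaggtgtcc
Gjb6, chr14:57133612-57133861, minus strand: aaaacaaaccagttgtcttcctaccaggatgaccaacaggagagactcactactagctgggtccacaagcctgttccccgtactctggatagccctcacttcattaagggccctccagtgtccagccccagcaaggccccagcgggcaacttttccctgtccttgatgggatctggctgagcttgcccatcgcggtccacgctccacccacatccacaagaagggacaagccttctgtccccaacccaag
Gja1, chr10:56377050-56377299, plus strand: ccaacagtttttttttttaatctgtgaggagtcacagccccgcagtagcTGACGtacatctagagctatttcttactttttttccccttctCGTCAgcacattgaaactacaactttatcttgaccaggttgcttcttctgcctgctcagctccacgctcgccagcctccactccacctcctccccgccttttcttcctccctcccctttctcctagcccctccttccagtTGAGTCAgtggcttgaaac

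The Gjb2 window held 1 half-site and 2 GC boxes. The Gja1 window held 2 half-sites and 1 AP-1 site, and the Gjb6 window held 0 matches to these motifs. The full cAMP response element, which contains the half-site, was in none of the 3 windows. Of 32851 windows of the same length in the RefSeq table, 1.55% held the full element, 17.8% the half-site, 6.75% the AP-1 site, 6.02% the E-box, 32.7% the GC box, 0.536% the EGR site, 33.8% the CCAAT box and 12.4% the TATA box. The table matched 6 of the 7 connexins, and Gjc1 is named only. The shorter E-box core CANNTG, not in capitals, overlaps the E-box, matched once in each printed window and was in 66.2% of all windows. Each match is a description of the letters in these windows.

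Gjb6, with Gja1 a principal connexin of mature astrocytes, was lower on pulsed arrays in most pairs of groups but passed no test. In the ventral SCN its log2 values were 6.20, 5.68, 7.75 and 8.02 on pulsed arrays 1 to 4, against 6.44, 6.60, 8.07 and 8.35 on sham arrays 1 to 4. In the central SCN they were 5.07, 4.78, 6.87 and 7.07 on pulsed arrays 1 to 4, against 5.77, 5.66, 7.55 and 7.37 on sham arrays 1 to 4. In both regions every pulsed array lay below the sham arrays of its batch, as was true of 7.91% of tested genes in the ventral and 6.36% in the central SCN. The differences were -0.45 ± 0.196 (adjusted p = 0.635) in the ventral and -0.64 ± 0.196 (adjusted p = 0.255) in the central SCN. In the dorsal SCN pulsed arrays 1 to 4 gave 6.33, 5.88, 7.74 and 6.96, against 6.21, 5.97, 8.25 and 8.16 on sham arrays 1 to 4. There the batches differed, at 0.01 in batch A and -0.85 in batch B, and the difference was -0.42 ± 0.196 (adjusted p = 0.487). Without pulsed dorsal array 4 it was -0.19 ± 0.161 (adjusted p = 0.900). Averaged over regions it was -0.51 ± 0.135 (adjusted p = 0.214). With arrays weighted by their fit, the ventral and central differences were -0.42 and -0.56 and passed (adjusted p = 0.0497 and 0.0450), and without pulsed dorsal array 4 the central difference passed (-0.64, adjusted p = 0.0335). Among fits that left out 1 array, Gjb6 passed in 0 of 24 in the ventral and 1 of 24 in the central SCN. Among the other alternatives it passed in 1 of 13 in each of these regions.

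Gja1, the most widely expressed connexin of astrocytes, gave the highest values of the 7 genes on its leading probe set, 1437992_x_at. In the ventral SCN its log2 values were 11.11, 11.03, 12.21 and 12.40 on pulsed arrays 1 to 4, against 11.35, 11.44, 12.33 and 12.54 on sham arrays 1 to 4. In the central SCN they were 10.44, 10.05, 11.86 and 11.97 on pulsed arrays 1 to 4, against 10.82, 10.52, 12.17 and 12.20 on sham arrays 1 to 4. Pulsed and sham arrays overlapped within batch B in the ventral SCN and did not overlap within either batch in the central SCN. In the central SCN 6.36% of all tested genes were lower after the pulse without overlap in this way. The differences were -0.23 ± 0.159 (adjusted p = 1.00) in the ventral, -0.35 ± 0.159 (adjusted p = 0.582) in the central and -0.04 ± 0.159 (adjusted p = 0.928) in the dorsal SCN. The array carries 6 probe sets for Gja1, of which 5 averaged between 9.40 and 11.54 and the sixth averaged 3.66 and was above the array median on 0 arrays. The 5 bright probe sets had ventral light differences between -0.29 and -0.20 and central ones between -0.36 and -0.30, and in a fit of all 30983 probe sets over the filter 0 of them passed in either region.

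Gjd2, the neuronal connexin, showed no light difference that passed and varied between batches in the dorsal SCN. Its log2 values in the dorsal SCN were 8.10, 7.92, 10.03 and 8.97 on pulsed arrays 1 to 4, against 6.98, 7.75, 10.49 and 9.69 on sham arrays 1 to 4. Both pulsed arrays of batch A lay above their sham arrays, by 0.64 on average, while in batch B the difference was -0.58 and the pulsed arrays included array 4. The fitted difference was 0.03 ± 0.289 (adjusted p = 0.973), and without pulsed dorsal array 4 it was 0.32 ± 0.270 (adjusted p = 0.900). In the ventral and central SCN the differences were -0.15 ± 0.289 (adjusted p = 1.00) and 0.11 ± 0.289 (adjusted p = 0.984), and the intervals, -0.76 to 0.45 and -0.49 to 0.71, leave room for changes of that size in either direction.

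The remaining 3 connexins were near the lower end of the measured range. Gja4 (Cx37), a connexin of arterial endothelium, exceeded a log2 value of 4 on 9 arrays and the array median on 2. Gjc1 (Cx45), found in vascular smooth muscle and in some neurons, exceeded 4 on 13 arrays and the median on 8. Gjc3 (Cx29), a connexin of myelinating glia, exceeded 4 on 9 arrays and the median on 1. In batch A the highest values were 3.68 for Gja4, 3.22 for Gjc3 and 4.08 for Gjc1. Gja4 and Gjc3 thus passed the filter through batch B alone, the batch with the higher array medians. Their light differences lay between -0.25, for Gjc3 in the dorsal SCN, and 0.45, for Gjc1 in the dorsal SCN, and 0 passed. Pulsed dorsal array 4 held the lowest Gjc3 value of batch B, 3.62, and the highest Gjc1 value, 5.96, and without it the dorsal differences were -0.05 for Gjc3 and 0.22 for Gjc1. For Gjc1 in the dorsal SCN the values were 3.05, 3.89, 5.00 and 5.96 on pulsed arrays 1 to 4, against 3.05, 3.33, 4.59 and 5.12 on sham arrays 1 to 4, which overlapped in both batches (difference 0.45 ± 0.268, adjusted p = 0.524). In the central SCN the Gjc1 batches had opposite signs, 0.58 in batch A and -0.47 in batch B.

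**Figure D2:**
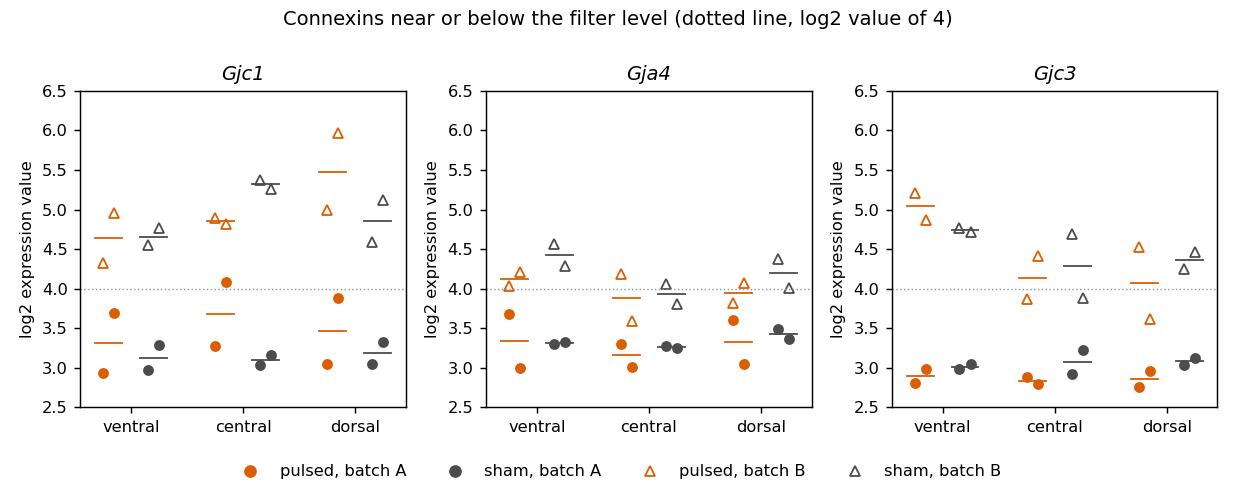
Deposited log2 values of Gjc1, Gja4 and Gjc3 (one panel each) on all 24 arrays, by region, with pulsed arrays left of sham arrays and the batches drawn with separate symbols; the dotted line is the filter at a log2 value of 4. Most batch A values lie under the filter, and the highest value of the 3 genes is 5.96, for Gjc1 on pulsed dorsal array 4.

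**Figure D3:**
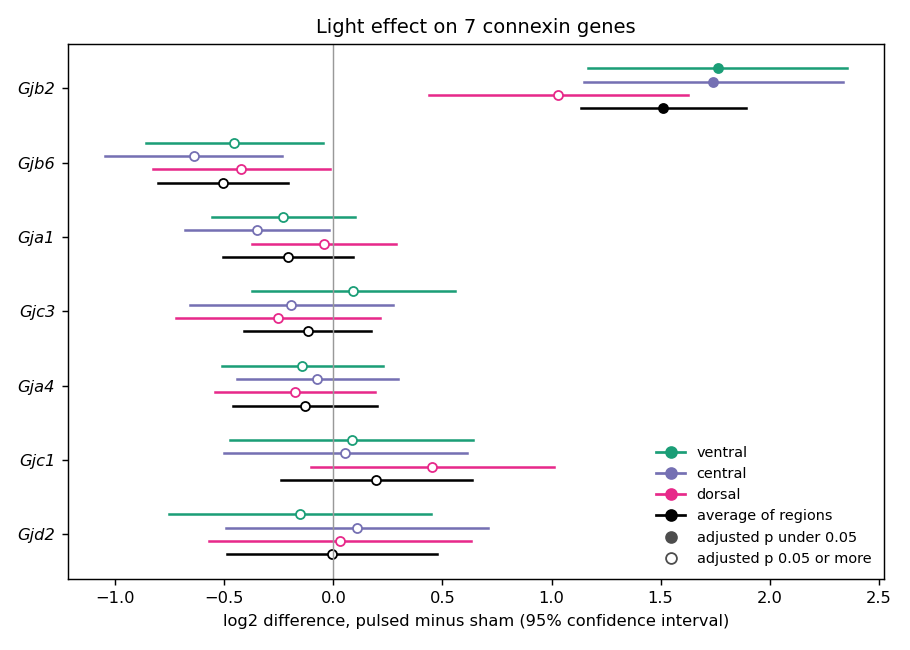
Light differences, pulsed minus sham on the log2 scale, of the 7 connexins in each region and averaged over regions; points are fitted differences, bars are 95% confidence intervals, and filled points passed the test. The Gjb2 points lie at 1.76, 1.74, 1.03 and 1.51, and for the other 6 genes the regional points lie between -0.64 and 0.45.

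Other genes of the gap junction system did not pass in any light comparison. Apart from the 7, 7 connexins had a probe set of a single symbol. Of these, Gjb1 (a connexin of oligodendrocytes) and Gjd4 were tested and 0 passed, and Gja3, Gja5, Gja10, Gjb5 and Gje1 lay under the filter. Of the pannexins, which form related channels that do not usually join cells, Panx1 and Panx2 were tested and 0 passed. Panx2, found mainly in neurons, had differences of -0.32 ± 0.364 (adjusted p = 1.00) in the ventral, -0.60 ± 0.364 (adjusted p = 0.764) in the central and -0.78 ± 0.364 (adjusted p = 0.487) in the dorsal SCN. Of 21 binding partners and kinases of connexins, 17 were tested and 0 rose or fell in the ventral, central, dorsal or averaged comparison, with medians of -0.01, -0.17, -0.04 and -0.08. The 2 with the smallest p in the central SCN were Prkca, a protein kinase C (-0.56 ± 0.201, adjusted p = 0.392), and Camk2a (-0.42 ± 0.160, adjusted p = 0.430).

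Levels between regions were compared over both treatments, with 8 arrays per region. Of the 7 connexins, 1 was higher and 1 lower in ventral than in dorsal SCN, where 4.61% of all tested genes were called, 2.63% higher and 1.98% lower. In ventral against central SCN 3 were higher and 0 lower, where 5.2% of genes were called and 4.36% were higher. In central against dorsal SCN 0 were higher and 2 lower, where 7.11% were called and 5.14% were lower. The medians of the 7 differences were 0.20, 0.34 and -0.16 in these 3 comparisons, against 0.01, 0.05 and -0.05 over all genes.

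Gjd2 was highest in dorsal SCN and lowest in ventral SCN. With each value centred on the mean of its batch, Gjd2 ranged from -0.99 to -0.15 with a median of -0.58 on ventral arrays and from -0.61 to 0.38 with a median of -0.30 on central arrays. On dorsal arrays it ranged from -0.01 to 1.51 with a median of 0.90, and the lowest of these was pulsed dorsal array 4. Ventral and dorsal arrays did not overlap within either batch, and 0.897% of all tested genes were lower in ventral SCN without overlap in this way. The difference was -1.36 ± 0.205 (2.56-fold lower in ventral SCN, adjusted p = 0.000146), and it was -1.29 within batch A and -1.42 within batch B. Central SCN was also lower than dorsal SCN (SE 0.205, 95% confidence interval of the log2 difference -1.43 to -0.58, adjusted p = 0.00281), and ventral and central SCN, the neighbours in this order, differed by -0.36 ± 0.205 (adjusted p = 0.550). The central minus dorsal difference passed in neither treatment alone. It was -1.04 on sham arrays (adjusted p = 0.0714) and -0.96 on pulsed arrays (adjusted p = 0.0747). A second, dimmer Gjd2 probe set, with a mean of 4.30 against 7.96 for the first, had a ventral minus dorsal difference of -0.45 ± 0.151 (adjusted p = 0.144) and a central minus dorsal difference of -0.17 ± 0.151 (adjusted p = 0.618) in the fit of all probe sets.

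Gjb6 was lower in central SCN than in both other regions. On the batch-centred scale it ranged from -0.20 to 0.72 with a median of 0.37 on ventral arrays and from -1.10 to -0.11 with a median of -0.46 on central arrays. On dorsal arrays it ranged from -0.72, on pulsed array 4, to 0.57 with a median of 0.21. Ventral SCN exceeded central SCN by 0.87 ± 0.138 (1.83-fold, adjusted p = 0.000241), and central SCN was below dorsal SCN by 0.67 (difference -0.67 ± 0.138, adjusted p = 0.00306). Ventral and dorsal SCN, at the top of the order, differed by 0.20 ± 0.138 (adjusted p = 0.528). The ventral minus central difference was 0.91 within batch A and 0.83 within batch B. On sham arrays alone the central minus dorsal difference was -0.56 and did not pass (adjusted p = 0.205).

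For Gja1 the order of the region medians was again ventral, dorsal and central, and the ventral minus central difference passed. Its batch-centred values were -0.04 to 0.61 (median 0.24) on ventral, -0.78 to -0.01 (median -0.29) on central and -0.24 to 0.25 (median 0.07) on dorsal arrays. Ventral and central arrays did not overlap within either batch, and 2.26% of all tested genes were higher in ventral SCN without overlap in this way. Ventral SCN exceeded central SCN by 0.55 ± 0.112 (1.46-fold, adjusted p = 0.00345), with differences of 0.77 within batch A and 0.32 within batch B. On sham arrays alone this difference was 0.49 and did not pass (adjusted p = 0.207). The 5 bright Gja1 probe sets differed between these regions by 0.46 to 0.61, with adjusted p from 0.00660 to 0.0459 in the fit of all probe sets. All of the 5 except 1415800_at, and so the leading one too, are _x_at sets, which may also bind other transcripts. The 1415800_at difference was 0.51, with the highest adjusted p of the 5 (0.0459). The sixth probe set differed by 0.25 (adjusted p = 0.513). Central and dorsal SCN differed by -0.32 ± 0.112 (adjusted p = 0.0985). This difference passed in 0 of 24 fits that left out 1 array and in 3 of 15 other alternatives. The 3 were quantile normalization (-0.30, adjusted p = 0.0307), array weights (-0.29, adjusted p = 0.0402) and the replicate number as a block (-0.32, adjusted p = 0.0499). In the fit of all probe sets no Gja1 probe set passed for central minus dorsal SCN, with adjusted p from 0.151 to 0.924. Ventral and dorsal SCN differed by 0.23 ± 0.112 (adjusted p = 0.341).

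Gjb2 was higher in ventral than in dorsal SCN by 0.78 ± 0.202 (1.72-fold, adjusted p = 0.0245) and than in central SCN by 0.84 ± 0.202 (1.80-fold, adjusted p = 0.0127), and central and dorsal SCN differed by -0.06 ± 0.202 (adjusted p = 0.898). These means join pulsed and sham arrays, and values of the 3 regions overlapped within both batches. On sham arrays alone the ventral minus dorsal difference was 0.41 (adjusted p = 0.960) and the ventral minus central difference 0.83 (adjusted p = 0.256). On pulsed arrays alone they were 1.15 (adjusted p = 0.0358) and 0.85 (adjusted p = 0.164). With 4 arrays per region, the ventral minus central difference passed in neither treatment alone. The ventral minus dorsal difference passed on pulsed arrays only. Those include pulsed dorsal array 4, where Gjb2 was 8.06 against 9.59 on array 3. The difference on pulsed arrays was not computed without pulsed dorsal array 4. Over both treatments, leaving out 1 array gave ventral minus dorsal differences of 0.60 to 0.87. Of the dimmer connexins, Gjc3 had batch-centred medians of 0.18, -0.06 and 0.01 in ventral, central and dorsal SCN, and its differences between regions, like those of Gja4 and Gjc1, did not pass.

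**Figure D4:**
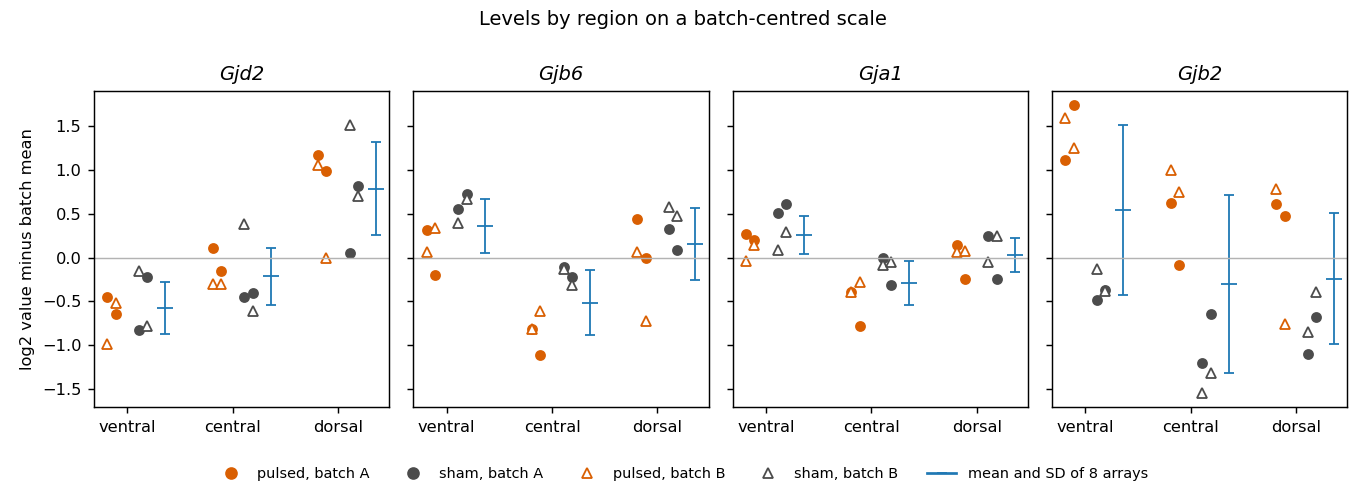
Batch-centred log2 values of Gjd2, Gjb6, Gja1 and Gjb2 (one panel each) in ventral, central and dorsal SCN, with pulsed arrays left of sham arrays, batches as separate symbols, and the mean ± SD of the 8 arrays of a region beside the points. Gjd2 has its highest median, 0.90, in dorsal SCN, and Gja1 and Gjb6 have their lowest medians, -0.29 and -0.46, in central SCN.

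Markers of several cell types differed between ventral and central SCN in the same direction as Gja1 and Gjb6. Of the 16 astrocyte markers, 10 were higher in ventral than in central SCN and 0 lower, with a median of 0.70. They were S100b, Ntsr2, Aqp4 (the water channel of astrocyte endfeet), Hepacam, Fam107a, Slc1a3, Aldoc, Aldh1l1, Slc7a10 and Fgfr3, from 0.39 for Slc1a3 to 1.08 for S100b. In central against dorsal SCN 6 of the 16 were lower (S100b, Fam107a, Ntsr2, Fgfr3, Hepacam and Slc7a10), with a median of -0.42 over the 16. In ventral against dorsal SCN 3 were higher (Aqp4, Gfap and Aldh1l1), with a median of 0.28. The Gjb6 difference between ventral and central SCN, 0.87, and that of Gja1, 0.55, lay on either side of the astrocyte median. All 12 tested oligodendrocyte markers were also higher in ventral than in central SCN, with a median of 2.08, from 0.72 for Olig2 to 3.21 for Mog, and with Mobp, Cldn11, Ermn, Mbp, Olig1, Ugt8a, Cnp, Opalin, Mag and Sox10 between them. Of 7 endothelial markers 3 were higher (Slco1a4, Cldn5 and Tek), and of 8 markers of mural cells 2 were higher (Rgs5 and Vtn). Of 4 markers of oligodendrocyte precursors and 8 of leptomeningeal fibroblasts, 1 each was higher, with medians of 0.40 and 0.38. Of 8 microglia markers and 4 of ependymal cells and tanycytes 0 were called, with medians of 0.38 and 0.30. The 10 neuronal markers had a median of 0.08, and 0 were called. The part of any of these cell types in the regional levels of the connexins was not tested.

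**Figure D5:**
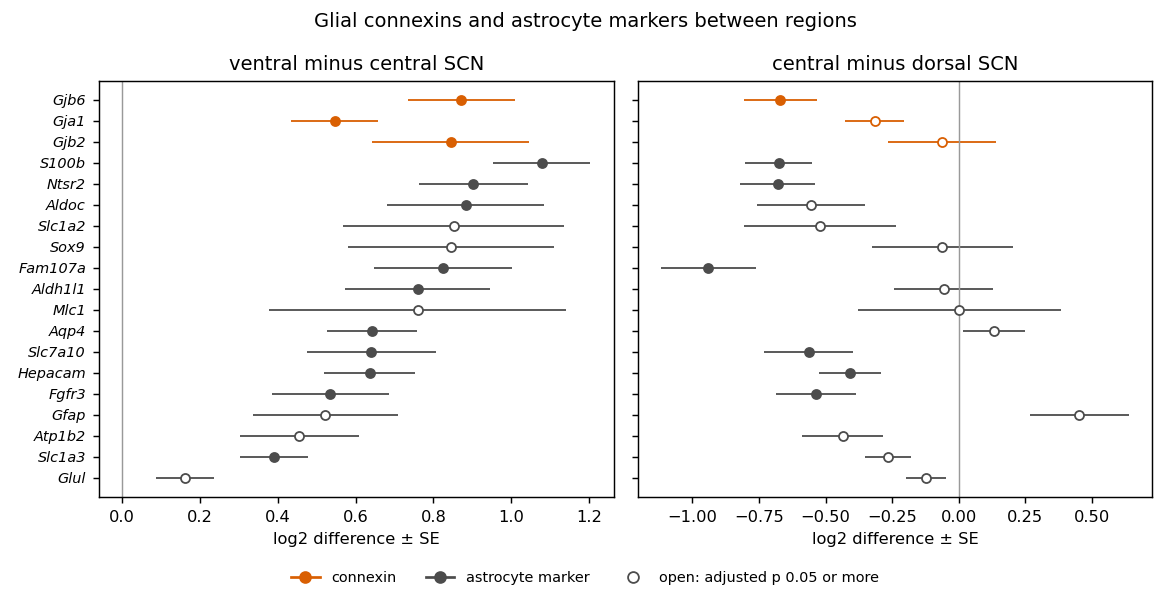
Differences between regions on the log2 scale, ventral minus central SCN (left) and central minus dorsal SCN (right), for Gja1, Gjb2 and Gjb6 and for the tested astrocyte markers; bars are 1 SE on either side and open points did not pass the test. Ventral minus central differences of all 16 markers are above 0, and the Gjb6 difference is 0.87 and that of Gja1 0.55.

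For comparison with Gjd2, of 10 neuronal markers tested, 2 were lower (Syt1 -2.04, Nefl -1.21) and 0 higher in ventral than in dorsal SCN, with a median of -0.14. In central against dorsal SCN 3 were lower (Syt1 -1.86, Nefl -1.67 and Nefm -0.64) and 0 higher, with a median of -0.24. Among the gap junction partners, Ccn3, a secreted matrix protein known to bind Gja1, was higher in central than in dorsal SCN by 2.61 ± 0.149 (adjusted p = 1.93e-10) and in ventral than in dorsal SCN by 1.51 ± 0.149 (adjusted p = 6.58e-07), and lower in ventral than in central SCN (-1.10 ± 0.149, adjusted p = 4.09e-05). Cdh2, the N-cadherin of adherens junctions, was higher in central than in dorsal SCN (0.50 ± 0.134, adjusted p = 0.0224), and the other 15 tested partners did not pass between regions. The tested pannexins and other connexins also did not pass in these comparisons.

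The genes most like each connexin were taken by Pearson correlation over the 24 arrays, after the mean of each batch was subtracted, as a description in which arrays share group, batch and possibly animal. For Gjb2 they were Wwtr1, a transcriptional coactivator of the Hippo pathway (r = 0.954), Cdk11b (0.925) and Megf10, an engulfment receptor of astrocytes (0.912). For Gjb6 they were Tmem229a (0.952), the neurotensin receptor gene Ntsr2 (0.944) and the transcription factor gene Nfib (0.937), and for Gja1 Sparcl1, a matrix protein secreted by astrocytes (0.940), Osbpl1a (0.912) and Nudt12 (0.907). For Gjd2 they were the transcription factor genes Mef2c (0.846) and Dlx1 (0.834) and Elmo1 (0.830). For the dimmer genes they were Rtn4r (0.799), Myh14 (0.796) and Epha10 (0.758) for Gja4, Magef1 (0.912), 1810062O18Rik (0.901) and Zfp729a (0.891) for Gjc1, and Alpl (0.847), Hs3st1 (0.795) and Stard13 (0.783) for Gjc3. Among the connexins themselves, the batch-centred correlation of Gja1 with Gjb6 was 0.801, and 0.521 within groups and batches. Gjb2 had correlations of -0.06 with Gja1 and -0.12 with Gjb6, and of -0.05 and 0.28 within groups and batches. The largest in size within groups and batches was that of Gjb6 with Gjc1, -0.67. It includes pulsed dorsal array 4, where Gjc1 was 5.96 against 5.00 on array 3 and Gjb6 was 6.96 against 7.74. Gjc1 exceeded the array median on only 8 arrays, and the correlation without pulsed dorsal array 4 was not computed.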

How the data were processed

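Per the labels' protocols, the SCN was microdissected from haematoxylin-stained sections, its RNA was purified with a bacterial RNA carrier, and amplification and labelling with Nugen Ovation kits were done in 2 batches. The authors deposited log2 expression values, 1 per probe set and array. GCRMA 2.32.0, MAS5 and R 3.0.2 appear in the submitters' processing notes, without their roles, and how the batches were normalized was not stated. Gene names come from the platform annotation, in which 34945 probe sets had 1 symbol, 932 several and 9160 none. The suffix _x_at marks probe sets that may also bind other transcripts, by the array maker's naming.

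The test was limma's moderated statistic (version 3.58.1, R 4.3.3, lmFit and eBayes, two-sided): 1 probe set per gene, 13494 genes over the filter (4699 left out), 6 group means and the batch on 24 arrays, with 17 residual degrees of freedom. The averaged light effect used 8 composites, with 5 residual degrees of freedom. Fitting was tested on simulated data. The number of arrays limits the precision. Promoter windows come from RefSeq (GRCm38.p6), and their motifs were chosen after the data were seen. The connexins, the 15 gene lists and the tests were chosen with earlier results of these data known. The genes named are the 7 connexins, the 3 closest genes by correlation, and of most lists described those that passed or, for some, the 2 with the smallest p where 0 passed. Alternatives covered the filter, normalization, batch, array weights, probe sets, replicate block, single treatments and leaving out arrays.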

Additional observations from a re-analysis of the deposited data

Results flagged for a closer look

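Each of the 42 groups of 4 batch-centred values (7 connexins, 6 groups) was searched for a lone high or low array, judged by its gap to the nearest array as a share of the range of the group. Such a search flags about 1 in 20 groups by chance, and 3 were found. Gjd2 on pulsed dorsal array 4 was -0.01 with the nearest array at 0.99, a gap of 0.841 of the range, on the array with the high Gapdh 3′ to 5′ difference. Gjc1 on pulsed central array 2 was 0.77 with the nearest at -0.04, a gap of 0.879 of the range, and that array had the lowest median correlation of batch A, 0.955. Gja4 on sham central array 4 was -0.28 with the nearest at -0.06, a gap of 0.862 of the range.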

How the results depend on the processing

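Across 41 alternatives, 24 of them leaving out 1 array and 2 added after the data were seen, the 10 called differences kept their sign in all 385 values and stayed called in 345. Of 2224 values for differences that were not called, 10 became called and 139, in 30 of 60 results, changed sign. The share of all tested genes called under each alternative is not given here. The counts that follow therefore describe the settings and are not results about the connexins in particular. Without the batch term 0 connexins were called in the ventral, central and averaged light comparisons and in all 3 comparisons of regions. Within batch A the counts were 0, 0 and 0 for light in ventral, central and averaged SCN and 1 in each comparison of regions, and within batch B all 6 were 0, with 2 arrays per group. With array weights 2 connexins were called in ventral, 2 in central and 1 in dorsal SCN, the last being Gjb2 (1.49, adjusted p = 7.46e-05). With only the arrays of the groups compared 0 were called in central SCN, where Gjb2 had an adjusted p of 0.0514, and with all arrays as separate values 2 in the averaged comparison (Gjb6 -0.51, adjusted p = 0.0105). On sham arrays alone 1 was called for ventral minus dorsal, 1 for ventral minus central and 0 for central minus dorsal SCN, and on pulsed arrays alone 1 for the last. Without the 2 arrays that stood apart, pulsed dorsal array 4 and pulsed central array 2 (added), 1 was called in dorsal SCN (Gjb2 1.38, adjusted p = 0.00234). Leaving out 1 array gave counts of 1 to 2 in central SCN, 0 to 1 in dorsal SCN and 1 to 2 for ventral minus dorsal SCN, where Gjb2 was lost (adjusted p up to 0.0642) without pulsed ventral array 2 or 3, sham ventral array 3 or sham dorsal array 1 or 3. Gjb2 stayed called in all 24 such fits in ventral (1.65 to 1.87), central (1.59 to 1.97) and averaged SCN (1.36 to 1.65). The cause of these changes was not tested. Same-numbered arrays deviated together, with correlations of 0.209 to 0.623 in batch A and 0.0960 to 0.460 in batch B, 29 of 30 over 0.1. Between pulsed and sham arrays of the same number they were 0.209 to 0.422 in batch A and 0.0960 to 0.290 in batch B. This pattern comes from the data and not the design, and its source was not tested. With the replicate block the counts were 1, 1, 0 and 1 for light in ventral, central, dorsal and averaged SCN, 2 and 3 for ventral minus dorsal and ventral minus central, and 3 for central minus dorsal SCN, where Gja1 (-0.32, adjusted p = 0.0499) was added, as it was with quantile normalization and array weights. Weak signal limits Gja4, Gjc1 and Gjc3, which were under the filter on 15, 11 and 15 arrays.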
